A study of Mus musculus with 36 samples.

Results

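Epididymal adipocytes of leptin-deficient ob/ob mice were compared with epididymal adipocytes of lean wild type C57BL/6J mice, both male, kept on chow and killed at 6 months of age. The study's text does not name the background strain of the ob/ob mice. The comparison rested on 6 of the 36 arrays of the series, 3 per genotype, chosen by their titles, and on every probe set that carries a gene symbol, which were 23410 of 35556. The series as a whole measured RNA of adipocytes from epididymal fat and from bone marrow on Affymetrix Mouse Gene 1.0 ST arrays, in wild type mice on chow or a high fat diet (HFD) at 6 and 14 months, wild type mice on chow at 18 months, and ob/ob mice at 6 months. Epididymal fat was digested with collagenase and the floating cells were taken as adipocytes. Each array was hybridized with RNA pooled from several mice, so n counts pools, and the p-values measure the spread between pools, which can be smaller than that between animals. Standard errors and p-values use 1 spread per probe set over the 30 arrays of 10 groups. They can therefore understate the spread of a gene that is uneven within ob/ob. Obesity comes with the genotype in these mice, so an effect of leptin deficiency and an effect of obesity cannot be told apart.

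Leptin is the hormone by which adipocytes report their fat store to the brain, and the ob allele is a nonsense mutation in its gene, Lep, that leaves ob/ob mice without circulating leptin, hyperphagic and very obese. Epididymal fat is the largest visceral depot of the male mouse, and it is known for the macrophages that gather around its dying adipocytes in obesity. Mature adipocytes take up glucose under insulin, make and store triglyceride, release fatty acids on adrenergic stimulation, and secrete hormones such as adiponectin and resistin. Transcript levels are given as the deposited log2 values, in which a difference of 1 is a doubling, and each difference is ob/ob minus chow with its standard error.

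Lep read 11.68, 12.53 and 12.45 in the ob/ob arrays, against 13.07, 12.80 and 12.77 in the chow arrays. The ob/ob levels were lower in every pool, but the difference of -0.66 ± 0.39 was within the error of the fit over both depots (limma, adjusted p = 0.22). With only the epididymal arrays in the fit the adjusted p was 0.00622. The mutation leaves a transcript that the probes can read, so this level does not check the genotype. Lepr, the leptin receptor, read 4.63, 4.70 and 4.53 in the ob/ob arrays, against 4.16, 4.21 and 4.45 in the chow arrays (0.34 ± 0.33, adjusted p = 0.469).

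The 6 arrays did not all resemble their group equally. Pearson correlations over the tested probe sets were 0.983 and 0.978 between ob/ob 01 and the other two ob/ob arrays, 0.994 between ob/ob 02 and 03, 0.989 to 0.993 among the chow arrays and 0.937 to 0.955 between the genotypes. At 477 probe sets ob/ob 01 lay more than 1 log2 unit from both other ob/ob arrays on the same side, against 20 for ob/ob 02 and 39 for ob/ob 03. Relative to the mean of ob/ob 02 and 03, ob/ob 01 was high in neutrophil and acute inflammatory transcripts, with Cxcr2, a neutrophil chemokine receptor, higher by 3.59 and Il1b, interleukin-1 beta, by 2.56. It was low in Inmt, an N-methyltransferase (-3.73), in the mast cell chymase Mcpt4 (-3.30) and in the lipogenic gene Thrsp (-2.81). Neutrophil transcripts were also high in chow 01: S100a8, a calcium-binding protein of neutrophils, read 9.57, 7.91 and 7.09 in the ob/ob arrays, against 9.86, 5.43 and 5.60 in the chow arrays. Values without ob/ob 01, and for neutrophil and proliferation genes also without chow 01, stand beside the results that moved most. Named genes and list medians were also refitted without each of the 6 arrays, and the outcome is summarized with the other processing alternatives.

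Of the 23410 probe sets, 2286 (9.77%) differed at least 2-fold at an adjusted p under 0.05 and are described as called. Of these, 1316 (5.62% of all) were higher in ob/ob and 970 (4.14%) were lower, or 1134 and 889 distinct genes. Without ob/ob 01 the counts were 1489 higher and 933 lower, and 2067 probe sets were called with and without it. Higher probe sets made up 57.6% of the calls on the deposited scale, and 47.6% after each array was centred on its median, which moved the median difference of all probe sets to -0.18 from -0.07. Large changes were more often upward: 100 probe sets were higher and 36 were lower by at least 8-fold. The 3 ob/ob arrays lay all above or all below the 3 chow arrays at 2225 of the called probe sets and at 42.2% of all.

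Counted once per gene, and with no minimum fold, 2774 of 19938 genes (13.9%) rose in ob/ob adipocytes and 3182 (16.0%) fell, and the median gene differed by -0.09. In the gene groups described from here on, rose and fell refer to this test, at an adjusted p under 0.05 with every named probe set in the adjustment, and these shares are the background against which a group's counts are read. Where a single gene is said to keep, lose or gain its call under another fit, this test with no minimum fold is meant.

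The 10 genes that rose most were mainly genes of macrophages, mast cells and other hematopoietic cells. Gpnmb, a membrane glycoprotein of lipid-laden macrophages, read 12.10, 12.74 and 12.94 in the ob/ob arrays, against 7.96, 8.21 and 8.20 in the chow arrays (4.47 ± 0.32, adjusted p = 1.94e-11), a 22.2-fold higher level. Atp6v0d2, a subunit of the lysosomal proton pump in macrophages and osteoclasts, read 9.91, 11.43 and 11.87 in the ob/ob arrays, against 5.90, 6.39 and 5.79 in the chow arrays (5.04 ± 0.46, adjusted p = 1.95e-09). Both were lowest in ob/ob 01 among the ob/ob arrays, and even there they lay well above the highest chow array. Mpeg1, a pore-forming protein of phagocytes, read 11.22, 11.85 and 12.01 in the ob/ob arrays, against 7.95, 7.19 and 7.27 in the chow arrays (4.22 ± 0.24, adjusted p = 2.81e-13).

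Mast cell genes rose as steeply. Cpa3, carboxypeptidase A3 of mast cell granules, read 7.78, 9.91 and 10.18 in the ob/ob arrays, against 5.22, 4.72 and 4.78 in the chow arrays (4.39 ± 0.50, adjusted p = 8.65e-08), and Mcpt4 read 7.30, 10.44 and 10.76 in the ob/ob arrays, against 5.35, 5.50 and 5.52 in the chow arrays (4.05 ± 0.47, adjusted p = 1.02e-07). The rise of Mcpt4 was 5.15 without ob/ob 01, the array with the weakest mast cell signal. Hpgds, the hematopoietic prostaglandin D synthase, read 8.74, 10.16 and 10.73 in the ob/ob arrays, against 5.64, 5.42 and 5.89 in the chow arrays (4.23 ± 0.34, adjusted p = 2.27e-10). Cxcl13, the chemokine that draws B cells into follicles, was instead highest in ob/ob 01, with 10.99, 9.92 and 8.93 in the ob/ob arrays, against 5.95, 5.89 and 6.02 in the chow arrays (4.0 ± 0.53, adjusted p = 9.48e-07).

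The other named rises were Ms4a6b, a membrane protein of leukocytes (4.07 ± 0.21), Rnf128, an E3 ubiquitin ligase (4.05 ± 0.33), and a probe set listed under Kcnma1, the large-conductance calcium-activated potassium channel. That probe set read 11.97, 9.84 and 7.67 in the ob/ob arrays, against 3.66, 4.18 and 4.02 in the chow arrays (5.87 ± 0.63, adjusted p = 2.79e-08), the largest rise of all and the most uneven one, and its difference was 4.80 without ob/ob 01. A second probe set listed under Kcnma1, which carries 17 RefSeq accessions against 0 for the first, read 5.08, 4.82 and 4.95 in ob/ob and 5.09, 5.00 and 5.01 in chow. The channel's name is therefore uncertain for the probe set that rose. In bone marrow adipocytes it read 5.23, 7.43 and 8.49 in ob/ob mice, against 4.30, 4.04 and 4.48 in chow mice, a difference of 2.78 that did not pass the test (adjusted p = 0.0525).

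The steepest falls were of metabolic enzymes and of genes induced within minutes of a stimulus. Cyp2e1, the cytochrome P450 that oxidizes ethanol and acetone, read 5.66, 7.62 and 7.05 in the ob/ob arrays, against 12.83, 12.96 and 12.94 in the chow arrays, a difference of -6.13 ± 0.57 or 70.2-fold (adjusted p = 2.13e-09). Mogat1, which acylates monoacylglycerol, read 4.41, 4.42 and 4.94 in the ob/ob arrays, against 8.99, 8.68 and 8.95 in the chow arrays (-4.28 ± 0.23, adjusted p = 1.64e-13), and Thrsp, a regulator of lipogenesis, read 5.82, 8.50 and 8.75 in the ob/ob arrays, against 11.88, 11.75 and 11.66 in the chow arrays (-4.08 ± 0.42, adjusted p = 1.44e-08). The fall of Thrsp was -3.14 without ob/ob 01, in which it was lowest. Fosb, a subunit of the AP-1 transcription factor, read 7.81, 6.29 and 5.59 in the ob/ob arrays, against 12.50, 12.39 and 12.49 in the chow arrays (-5.89 ± 0.54, adjusted p = 1.97e-09). The fall of Fosb was 59.5-fold, and its lowest chow array stood more than 4 log2 units above its highest ob/ob array.

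Fabp9, a fatty acid binding protein first described in testis, read 4.44, 4.18 and 4.03 in the ob/ob arrays, against 9.29, 9.81 and 10.26 in the chow arrays (-5.57 ± 0.17, adjusted p = 2.89e-18). The ob/ob level of Fabp9 was near the bottom of the scale, with 16.4% of tested probe sets below it, and that of Mogat1 had 22.5% below it. The chow level of the probe set listed under Kcnma1 had 10.9% below it. Arrays measure differences least well there, so the sizes and ranks of these differences are uncertain. Fabp9's neighbours on chromosome 3, Pmp2 and Fabp4, gave -3.39 ± 0.17 (adjusted p = 3.41e-14) for Pmp2, the fatty acid binding protein of peripheral myelin, and -0.46 ± 0.29 (adjusted p = 0.249) for Fabp4, the adipocyte form. The ob/ob mean of Pmp2, 4.10, was also near the bottom of the scale, so the size of its fall is uncertain. Lsmem1, a single-pass membrane protein, was separated as widely between the genotypes, with 6.15, 5.67 and 5.47 in the ob/ob arrays, against 10.47, 10.84 and 11.20 in the chow arrays (-5.07 ± 0.20, adjusted p = 3.88e-16). Retnla, a resistin-like protein of alternatively activated macrophages, read 4.84, 6.35 and 6.27 in the ob/ob arrays, against 10.21, 9.59 and 9.80 in the chow arrays (-4.05 ± 0.27, adjusted p = 5.79e-12), in contrast to the rises of most macrophage genes. The remaining named falls were Nr4a1 (-4.08 ± 0.28) and Egr1 (-3.87 ± 0.35), inducible transcription factors, and Cxcl10, an interferon-inducible chemokine, at 7.56, 7.98 and 8.33 in the ob/ob arrays, against 11.78, 11.96 and 11.89 in the chow arrays (-3.92 ± 0.20, adjusted p = 3.41e-14).

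**Figure D1:**
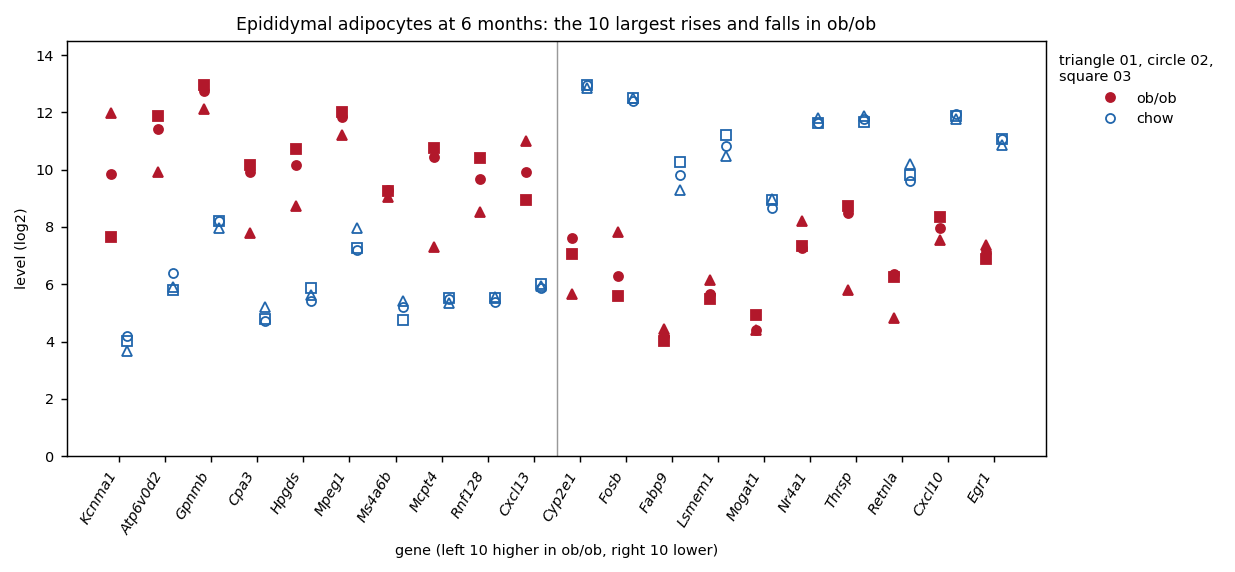
Log2 level of the 10 genes with the largest rises (left) and falls (right) in epididymal adipocytes of ob/ob mice at 6 months, each with the 3 ob/ob arrays (filled red) left of the 3 chow arrays (open blue). The symbols mark the array number, and the 20 genes were chosen to have groups that do not overlap. The spread within ob/ob is widest for the probe set listed under Kcnma1, from 7.67 to 11.97.

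Markers of mature adipocytes were high in both genotypes and lower in ob/ob. Of 22 measured markers, 0 rose and 17 fell (median -1.14, and -1.0 with 14 falling without ob/ob 01). Their mean level was 10.85, 11.38 and 11.43 in the ob/ob arrays, against 12.46, 12.48 and 12.45 in the chow arrays, so the labelled cell type was present in every preparation. Adipoq, adiponectin, read 10.62, 11.05 and 11.16 in the ob/ob arrays, against 12.46, 12.59 and 12.57 in the chow arrays (-1.60 ± 0.39, adjusted p = 0.00244), and Plin1, the protein that coats the adipocyte lipid droplet, read 10.79, 11.72 and 11.77 in the ob/ob arrays, against 12.72, 12.77 and 12.73 in the chow arrays (-1.31 ± 0.27, adjusted p = 0.000363). Fabp4, Cd36, Lpl, Gpd1 and Lep were the 5 markers that did not pass the test, Cd36, the fatty acid translocase, with 13.05, 13.39 and 13.39 in the ob/ob arrays, against 13.29, 13.29 and 13.37 in the chow arrays. Across the 6 epididymal groups of the series, ob/ob had the lowest mean for 20 of the 22 markers, against 4758 of 19938 genes overall. In preparations of mixed cells, fewer adipocytes and less of a transcript per adipocyte cannot be told apart, and this holds for every adipocyte gene below.

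Markers of some other cell types moved in the opposite direction, and levels are given as the mean of each marker list by array. Macrophage markers averaged 9.95, 10.56 and 10.72 in ob/ob, against 7.73, 7.39 and 7.34 in chow. Mast cell and eosinophil genes averaged 6.45, 6.97 and 7.11 in ob/ob, against 5.63, 5.12 and 5.21 in chow, and fibroblast genes 8.65, 9.10 and 8.91 in ob/ob, against 7.93, 7.94 and 7.89 in chow. For all 3 lists the groups were apart. Endothelial genes (7.98, 7.83 and 7.83 in ob/ob, against 7.79, 7.85 and 7.74 in chow) and mesothelial genes (6.65, 7.02 and 6.83 in ob/ob, against 6.79, 6.81 and 6.82 in chow) overlapped. Epithelial genes of the epididymis stayed low, at 4.41, 4.13 and 4.12 in ob/ob and 4.37, 4.65 and 4.49 in chow. The part of these shares of other cells in the adipocyte results was not tested.

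**Figure D2:**
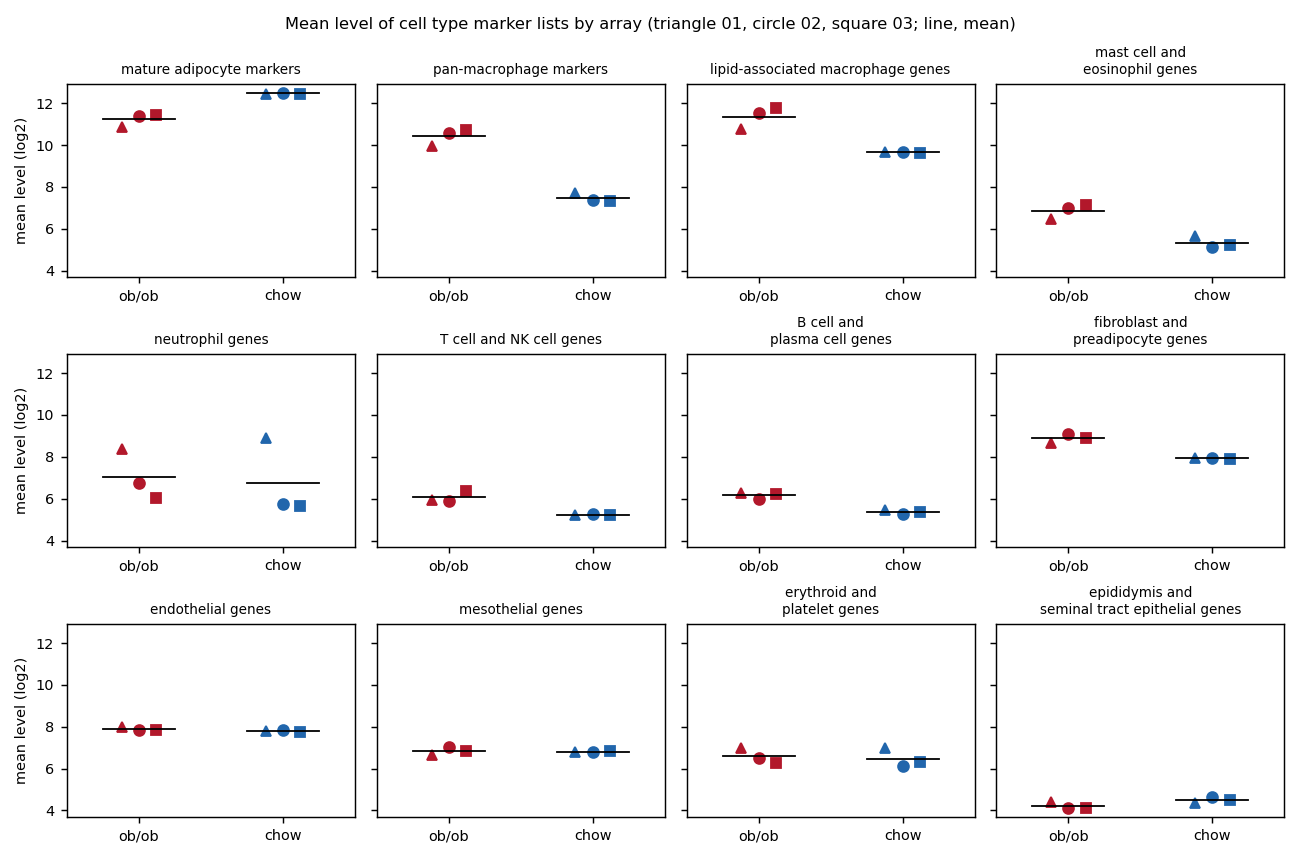
Mean log2 level of 12 cell type marker lists in each epididymal array at 6 months, with ob/ob (red) left of chow (blue) and a line at the mean of 3 arrays. Adipocyte markers lie lower and macrophage, mast cell, T cell, B cell and fibroblast genes higher in all 3 ob/ob arrays. Neutrophil genes run from 6.02 to 8.37 in ob/ob and from 5.65 to 8.88 in chow, with array 01 highest in both.

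Among hormones and other secreted products of adipocytes, 11 of 22 fell and 1 rose (median -0.69, and -0.64 with 14 falling without ob/ob 01). Agt, angiotensinogen, fell the most and read 8.29, 8.37 and 7.96 in the ob/ob arrays, against 11.48, 11.80 and 11.82 in the chow arrays (-3.49 ± 0.29, adjusted p = 2.81e-10). Retn, resistin, fell by 5.03-fold and read 10.58, 10.93 and 10.82 in the ob/ob arrays, against 13.18, 13.05 and 13.09 in the chow arrays (adjusted p = 3.77e-07). Rbp4, the plasma carrier of retinol, read 8.78, 9.67 and 9.48 in the ob/ob arrays, against 12.01, 11.91 and 11.99 in the chow arrays (-2.66 ± 0.27, adjusted p = 1.2e-08). For these 3 hormones every ob/ob array lay below every chow array. Vegfa, the main angiogenic growth factor of fat, read 8.10, 8.50 and 8.54 in the ob/ob arrays, against 10.87, 11.24 and 11.32 in the chow arrays (-2.76 ± 0.15, adjusted p = 2.3e-13), and Nrg4, a neuregulin secreted by brown and white fat, read 6.53, 7.96 and 7.83 in the ob/ob arrays, against 9.47, 9.50 and 9.63 in the chow arrays (-2.09 ± 0.22, adjusted p = 1.5e-08). The one that rose was Metrnl, a secreted protein of muscle and fat (0.63 ± 0.18, adjusted p = 0.00996), whose call did not hold without ob/ob 02 (adjusted p = 0.0618) or without chow 03 (adjusted p = 0.0566).

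Leptin signals through the kinase Jak2 and the transcription factor Stat3, and Socs3 is both its target and its inhibitor. Of 16 genes of this pathway 10 fell and 2 rose. Stat3 fell by a small amount (-0.60 ± 0.13, adjusted p = 0.000615), and Jak2 differed by -0.14 (adjusted p = 0.589). Socs3 read 8.54, 7.64 and 7.22 in the ob/ob arrays, against 9.75, 10.13 and 10.03 in the chow arrays (-2.17 ± 0.26, adjusted p = 2.31e-07), while its second probe set gave -0.74 (adjusted p = 0.0509). Cish, another cytokine-induced inhibitor, read 6.39, 6.09 and 6.28 in the ob/ob arrays, against 8.24, 8.76 and 8.74 in the chow arrays (-2.33 ± 0.17, adjusted p = 3.49e-11). Ptpn1, the phosphatase that dephosphorylates Jak2 and the insulin receptor, was one of the 2 that rose, with 9.26, 9.35 and 9.59 in the ob/ob arrays, against 8.24, 8.05 and 7.88 in the chow arrays (1.34 ± 0.13, adjusted p = 3.22e-09). Tyk2, a Janus kinase, was the other (0.81 ± 0.15, adjusted p = 0.000169).

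Insulin signaling genes fell from the receptor to the glucose transporter. Of 21 measured, 14 fell and 3 rose (median -1.0). Insr, the insulin receptor, read 9.78, 9.59 and 9.79 in the ob/ob arrays, against 10.67, 10.73 and 10.76 in the chow arrays (-1.0 ± 0.17, adjusted p = 5.11e-05). The receptor's docking proteins fell further, with Irs1 at 6.80, 6.76 and 6.97 in the ob/ob arrays, against 8.52, 8.71 and 8.68 in the chow arrays (-1.79 ± 0.18, adjusted p = 7.23e-09, and -0.33 at its second probe set) and Irs2 at 7.76, 7.20 and 7.09 in the ob/ob arrays, against 9.50, 10.12 and 9.94 in the chow arrays (-2.51 ± 0.20, adjusted p = 1.28e-10). The 2 measured Akt kinases went in opposite directions: Akt2, the form through which insulin moves glucose transporters, fell (-1.10 ± 0.12, adjusted p = 3.26e-08), and Akt1 rose (0.96 ± 0.15, adjusted p = 8.9e-06).

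Slc2a4, the insulin-responsive glucose transporter GLUT4, read 6.85, 8.29 and 8.05 in the ob/ob arrays, against 10.64, 10.86 and 10.75 in the chow arrays, a difference of -3.02 ± 0.23 or 8.11-fold (adjusted p = 5.75e-11). Hk2, the hexokinase that traps the glucose taken up, read 9.05, 9.07 and 9.09 in the ob/ob arrays, against 11.33, 11.51 and 11.51 in the chow arrays (-2.38 ± 0.27, adjusted p = 6.79e-08). Pde3b, the phosphodiesterase by which insulin restrains lipolysis, read 8.60, 9.67 and 9.60 in the ob/ob arrays, against 11.59, 11.72 and 11.74 in the chow arrays (-2.40 ± 0.25, adjusted p = 1.5e-08). None of these 3 genes had overlapping groups. Tbc1d4, the Akt substrate that holds GLUT4 vesicles back, fell by 1.46 on the log2 scale (adjusted p = 1.19e-08), and Cbl, an adaptor ubiquitin ligase, rose (0.72 ± 0.14, adjusted p = 0.000135).

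Of 28 genes of fatty acid and triglyceride synthesis 23 fell and 1 rose (median -1.22, and -1.05 without ob/ob 01). At the head of the pathway, Acly, which makes cytosolic acetyl-CoA, fell (-1.43 ± 0.17, adjusted p = 1.21e-07). The carboxylases that make malonyl-CoA fell too, Acaca with 9.05, 9.79 and 9.68 in the ob/ob arrays, against 11.52, 11.51 and 11.45 in the chow arrays (-1.98 ± 0.17, adjusted p = 4.11e-10) and Acacb with 7.03, 7.72 and 7.28 in the ob/ob arrays, against 9.57, 10.08 and 10.09 in the chow arrays (-2.57 ± 0.20, adjusted p = 1.26e-10). Fasn, fatty acid synthase, read 10.67, 11.46 and 11.29 in the ob/ob arrays, against 13.08, 12.90 and 12.86 in the chow arrays (-1.81 ± 0.14, adjusted p = 1.21e-10). Elovl6, which elongates palmitate, differed by -1.75 ± 0.16. Scd1, the stearoyl-CoA desaturase, fell least among those that passed, at -0.49 ± 0.18, adjusted p = 0.0478, and its call did not survive leaving out ob/ob 02 (adjusted p = 0.0805) or any 1 of several other arrays.

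On the esterification side, Gpat3, a glycerol phosphate acyltransferase, read 7.63, 8.20 and 8.45 in the ob/ob arrays, against 10.62, 10.77 and 10.81 in the chow arrays (-2.64 ± 0.21, adjusted p = 1.65e-10). Pnpla3, a lipase and acyltransferase of lipid droplets that follows carbohydrate supply, read 7.17, 8.47 and 8.45 in the ob/ob arrays, against 10.89, 10.90 and 10.85 in the chow arrays (-2.85 ± 0.25, adjusted p = 1.06e-09). The enzymes of the last step of the pathway, Dgat1 (-1.54) and Dgat2 (-0.77), fell less. Srebf1 (-1.36 ± 0.20, adjusted p = 3.28e-06) and Mlxipl (-1.19 ± 0.16, adjusted p = 1.31e-06), the genes of the lipogenic transcription factors SREBP1 and ChREBP, fell as well. Fads2, a desaturase of polyunsaturated fatty acids, was the single member that rose (0.98 ± 0.25, adjusted p = 0.00357). Pck1, which makes glycerol phosphate from pyruvate-derived carbon, had the steepest fall of any adipocyte marker and read 8.35, 9.25 and 9.44 in the ob/ob arrays, against 12.34, 12.55 and 12.52 in the chow arrays (-3.45 ± 0.29, adjusted p = 2.9e-10).

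Lipolysis genes fell in 13 of 19 cases and rose in 2 (median -0.99). Pnpla2, the triglyceride lipase ATGL, read 11.50, 11.43 and 11.36 in the ob/ob arrays, against 12.63, 12.71 and 12.71 in the chow arrays (-1.25 ± 0.16, adjusted p = 8.37e-07), and Lipe, hormone-sensitive lipase, read 10.82, 11.22 and 11.40 in the ob/ob arrays, against 12.35, 12.38 and 12.39 in the chow arrays (-1.23 ± 0.15, adjusted p = 2.93e-07). The largest falls in this group were of receptors that inhibit lipolysis. Ptger3, a prostaglandin E2 receptor, read 6.95, 8.23 and 7.73 in the ob/ob arrays, against 10.85, 10.54 and 10.53 in the chow arrays (-3.0 ± 0.23, adjusted p = 9.83e-11), Hcar1, the lactate receptor, read 7.31, 7.43 and 7.98 in the ob/ob arrays, against 10.23, 10.61 and 10.51 in the chow arrays (-2.88 ± 0.16, adjusted p = 1.6e-13), and Hcar2, the receptor for hydroxybutyrate and niacin, differed by -2.51 ± 0.29. Adcy3, an adenylate cyclase, rose (1.18 ± 0.22, adjusted p = 0.000103).

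Of 18 lipid droplet proteins 10 fell and 1 rose, or 9 and 3 without ob/ob 01 (median -0.89). Hilpda, a small inhibitor of ATGL, read 7.72, 7.30 and 7.0 in the ob/ob arrays, against 10.09, 10.27 and 10.34 in the chow arrays (-2.89 ± 0.25, adjusted p = 5.09e-10). The one that rose was Plin2, the droplet coat found in most cells including macrophages, with 12.26, 12.46 and 12.44 in the ob/ob arrays, against 11.67, 11.42 and 11.36 in the chow arrays (0.91 ± 0.14, adjusted p = 1.26e-05). Fatty acid uptake genes divided in the same way, with 8 of 19 lower and 3 higher. Slc27a1, a fatty acid transport protein of adipocytes and muscle, fell (-1.41 ± 0.17, adjusted p = 1.69e-07), while Fabp5, the fatty acid binding protein shared by macrophages and adipocytes, rose (9.86, 10.26 and 10.47 in the ob/ob arrays, against 9.11, 8.64 and 8.68 in the chow arrays, 1.39 ± 0.19, adjusted p = 2.35e-06).

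Mitochondrial genes were lower across pathways. In fatty acid oxidation 17 of 27 fell and 1 rose (median -0.78, and -0.57 with 15 falling without ob/ob 01). Ehhadh, a peroxisomal enzyme, fell the most (-1.93 ± 0.22, adjusted p = 1.05e-07), followed by Eci1, an enoyl-CoA isomerase (-1.59). The carnitine shuttle split, Cpt2 of the inner membrane falling (-1.32 ± 0.17, adjusted p = 7.38e-07) and Cpt1a, the outer membrane form of liver and other tissues, rising (1.04 ± 0.19, adjusted p = 8.79e-05). In the TCA cycle and pyruvate dehydrogenase group 23 of 30 fell and 1 rose (median -0.64, and -0.53 with 18 falling without ob/ob 01). Pdk2, a pyruvate dehydrogenase kinase, read 7.87, 8.31 and 7.99 in the ob/ob arrays, against 9.65, 9.98 and 9.86 in the chow arrays (-1.78 ± 0.17, adjusted p = 3.54e-09), and Pcx, pyruvate carboxylase, read 10.42, 11.00 and 10.82 in the ob/ob arrays, against 12.10, 12.22 and 12.15 in the chow arrays (-1.41 ± 0.21, adjusted p = 5.16e-06). Got1, the cytosolic aspartate aminotransferase, was the single rise (1.47 ± 0.27, adjusted p = 0.000113).

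Of 67 respiratory chain subunits, 40 fell and 0 rose (median -0.54). Without ob/ob 01, 29 fell and 0 rose (median -0.46), so part of these calls rested on that array. By complex, and with ob/ob 01 included, 17 of 34 subunits of complex I, 4 of 4 of complex II, 8 of 9 of complex III, 7 of 9 of complex IV and 4 of 10 of complex V fell, and 0 rose in any. Single differences ran from -1.09 for Uqcr11 of complex III to 0.24 for Ndufs8 of complex I, which did not pass the test (adjusted p = 0.668). Among the 6 epididymal groups ob/ob had the lowest mean for 38 of the 67. Enzymes that break down branched-chain amino acids fell further: 19 of 22 were lower and 0 higher, with a median of -1.32. Bcat2, the transaminase that starts the pathway, read 8.71, 8.91 and 9.12 in the ob/ob arrays, against 10.26, 10.37 and 10.31 in the chow arrays (-1.40 ± 0.16, adjusted p = 7.27e-08). Bckdhb, a subunit of the dehydrogenase that commits the carbon skeletons to oxidation, read 8.42, 8.79 and 9.02 in the ob/ob arrays, against 10.30, 10.53 and 10.70 in the chow arrays (-1.77 ± 0.15, adjusted p = 8.22e-10), and Hibch, a later step in valine breakdown, read 7.68, 8.33 and 8.21 in the ob/ob arrays, against 10.21, 10.18 and 10.13 in the chow arrays (-2.10 ± 0.23, adjusted p = 3.42e-08). Ivd and Mccc2, of leucine breakdown, differed by -1.76 and -1.78.

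Transcription factors of adipogenesis fell in 18 of 26 cases and rose in 3 (median -0.68). Pparg, the nuclear receptor that drives adipocyte identity, read 9.30, 10.04 and 10.31 in the ob/ob arrays, against 10.96, 10.78 and 10.63 in the chow arrays (-0.91 ± 0.29, adjusted p = 0.0186), but its fall rested on ob/ob 01: without that array the difference was -0.61 (adjusted p = 0.132), and without chow 01 the adjusted p was 0.0639. Cebpa, its partner, read 9.83, 9.87 and 10.05 in the ob/ob arrays, against 11.07, 11.06 and 10.77 in the chow arrays (-1.05 ± 0.18, adjusted p = 6.01e-05). Klf15, a glucocorticoid-responsive factor of mature adipocytes, read 6.57, 7.27 and 7.35 in the ob/ob arrays, against 9.07, 8.88 and 8.87 in the chow arrays (-1.88 ± 0.17, adjusted p = 1.06e-09), and Ebf1 differed by -1.16 ± 0.24. The inhibitors of helix-loop-helix factors moved apart, Id2 rising with 9.39, 9.52 and 9.29 in the ob/ob arrays, against 7.43, 6.55 and 6.99 in the chow arrays (2.41 ± 0.34, adjusted p = 2.75e-06) and Id3 falling with 8.43, 8.49 and 8.35 in the ob/ob arrays, against 10.47, 10.32 and 10.25 in the chow arrays (-1.93 ± 0.17, adjusted p = 5.69e-10).

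Among genes tied to fat expansion and imprinted growth control 8 of 14 fell and 0 rose. Plagl1, an imprinted zinc finger factor, read 6.64, 6.81 and 7.10 in the ob/ob arrays, against 9.57, 9.76 and 9.55 in the chow arrays (-2.78 ± 0.26, adjusted p = 1.95e-09), and Nnat, the imprinted proteolipid neuronatin, read 7.77, 9.75 and 10.01 in the ob/ob arrays, against 11.74, 11.75 and 11.75 in the chow arrays (-2.57 ± 0.36, adjusted p = 2.01e-06, and -1.87 without ob/ob 01). Sfrp5, a secreted Wnt inhibitor of adipocytes, differed by -2.24 ± 0.24 (adjusted p = 2.11e-08).

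**Figure D3:**
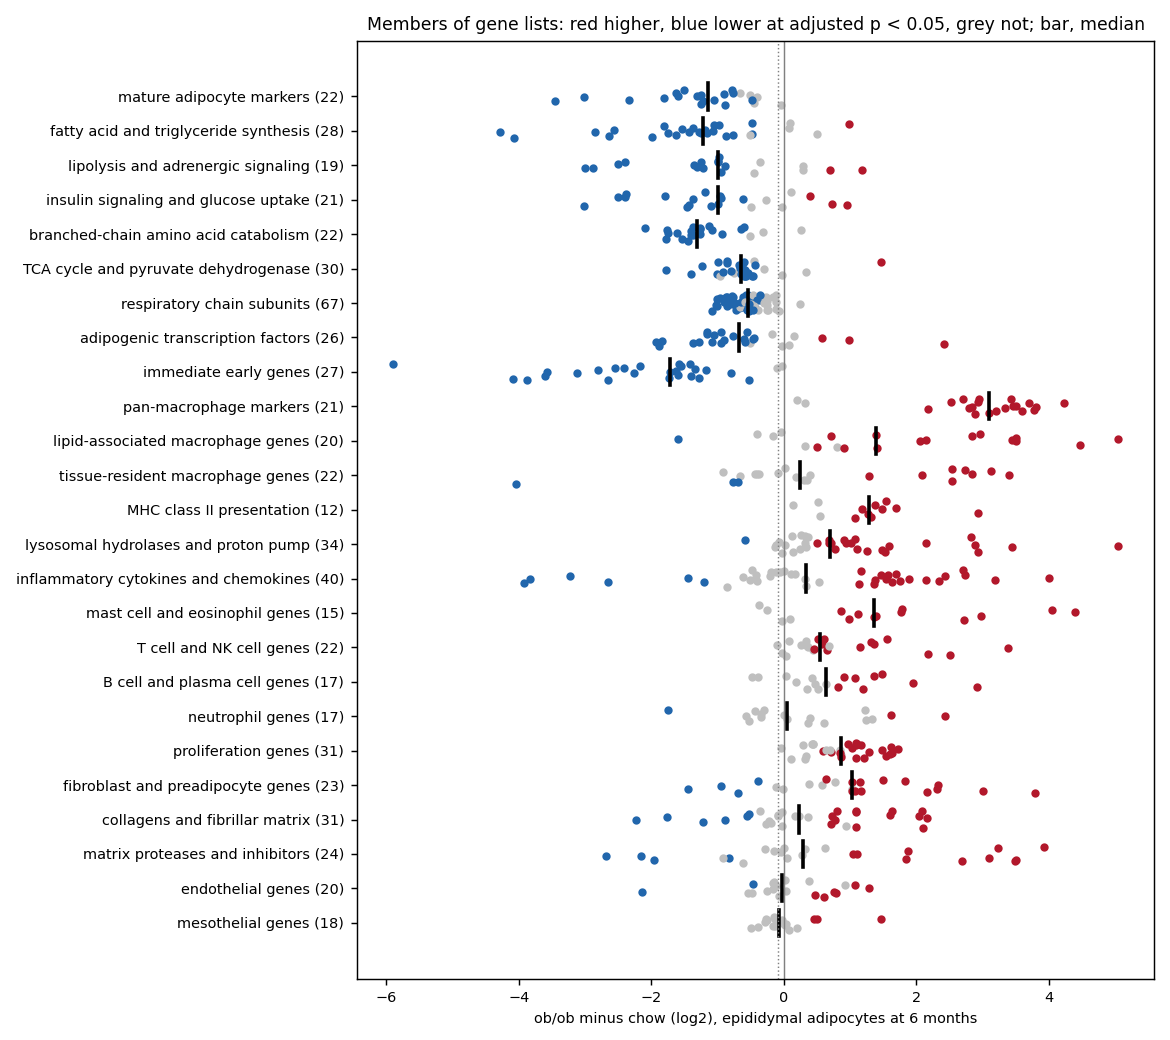
Difference between ob/ob and chow (log2) of every measured member of 25 gene lists in epididymal adipocytes at 6 months, with the number of members in brackets. Red points rose, blue points fell and grey points did not pass the test, black bars are list medians and the dotted line is the median of all genes, -0.09. Pan-macrophage markers lie furthest to the right (median 3.09) and immediate early genes furthest to the left (median -1.71).

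Pan-macrophage markers rose as a group: 19 of 21 were higher and 0 lower, with a median of 3.09 (3.20 without ob/ob 01). Adgre1, an adhesion receptor used as a surface marker of mouse macrophages, read 10.21, 11.45 and 11.45 in the ob/ob arrays, against 7.50, 7.23 and 7.28 in the chow arrays (3.70 ± 0.28, adjusted p = 5.31e-11), and Cd68, a lysosomal protein of macrophages, read 11.64, 12.61 and 12.72 in the ob/ob arrays, against 8.64, 8.55 and 8.38 in the chow arrays (3.80 ± 0.24, adjusted p = 3.23e-12). Csf1r, the receptor on which macrophages depend for survival, read 10.25, 11.45 and 11.42 in the ob/ob arrays, against 8.66, 8.48 and 8.41 in the chow arrays (2.53 ± 0.24, adjusted p = 3.13e-09). Itgax, the CD11c integrin of inflammatory fat macrophages and dendritic cells, read 8.59, 9.92 and 10.65 in the ob/ob arrays, against 6.14, 6.27 and 6.25 in the chow arrays (3.50 ± 0.40, adjusted p = 8.63e-08). In each case the lowest ob/ob array exceeded the highest chow array. The markers that did not pass were Cx3cr1, the fractalkine receptor, at 6.41, 6.87 and 7.02 in the ob/ob arrays, against 6.36, 6.11 and 6.88 in the chow arrays, and Cd14, a coreceptor for lipopolysaccharide, at 7.87, 8.33 and 7.81 in the ob/ob arrays, against 7.80, 7.90 and 7.72 in the chow arrays.

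Genes of lipid-associated macrophages, the cells that take up lipid around dead adipocytes, rose in 14 of 20 cases and fell in 1 (median 1.39, and 1.87 without ob/ob 01). Trem2, the lipid receptor that this program needs, read 8.56, 10.03 and 10.59 in the ob/ob arrays, against 6.72, 6.93 and 7.03 in the chow arrays (2.84 ± 0.32, adjusted p = 6.79e-08, and 3.42 without ob/ob 01). Cd9, a tetraspanin, read 9.72, 11.00 and 11.22 in the ob/ob arrays, against 8.03, 7.73 and 7.30 in the chow arrays (2.96 ± 0.27, adjusted p = 2.13e-09), Lipa, the lysosomal acid lipase, differed by 2.14 ± 0.22, and Mmp12, macrophage elastase, by 3.51 ± 0.41. Dcstamp, a fusion protein of macrophages and osteoclasts, read 4.93, 7.04 and 7.49 in the ob/ob arrays, against 5.11, 5.08 and 5.07 in the chow arrays (1.40 ± 0.33, adjusted p = 0.00162), with ob/ob 01 below the chow arrays, and its difference was 2.18 without that array. Acp5, tartrate-resistant acid phosphatase, was the single fall and read 9.97, 10.20 and 10.39 in the ob/ob arrays, against 11.69, 11.82 and 11.82 in the chow arrays (-1.59 ± 0.16, adjusted p = 8.29e-09).

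Genes of resident tissue macrophages divided, with 8 of 22 higher and 3 lower (median 0.24). Vsig4, a complement receptor, read 6.70, 9.08 and 7.97 in the ob/ob arrays, against 4.39, 4.63 and 4.54 in the chow arrays (3.40 ± 0.50, adjusted p = 4.85e-06, and 4.01 without ob/ob 01), Stab1, a scavenger receptor, read 10.31, 10.86 and 10.77 in the ob/ob arrays, against 7.49, 7.60 and 7.50 in the chow arrays (3.12 ± 0.22, adjusted p = 2.07e-11), and Mrc1, the mannose receptor CD206, read 10.96, 11.08 and 10.88 in the ob/ob arrays, against 7.95, 8.34 and 8.12 in the chow arrays (2.84 ± 0.28, adjusted p = 5.5e-09). Against these rises Retnla fell by 16.5-fold, and the other falls of the list were of the lectin genes Cd209b and Cd209g, of which Cd209b (-0.69 ± 0.21, adjusted p = 0.0144) lost the call without ob/ob 01 (adjusted p = 0.0571), ob/ob 03 (adjusted p = 0.0725) or chow 02 (adjusted p = 0.0756). Lyve1, the hyaluronan receptor of perivascular macrophages, differed by -0.38 (adjusted p = 0.143). MHC class II genes rose in 9 of 12 cases and fell in 0 (median 1.29), with H2-Ab1 at 11.05, 11.75 and 12.09 in the ob/ob arrays, against 10.00, 9.95 and 9.88 in the chow arrays (1.69 ± 0.19, adjusted p = 7.04e-08) and its transactivator Ciita at 1.31.

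Lysosomal genes rose in 20 of 34 cases and fell in 1 (median 0.69). Ctsk, cathepsin K, read 9.99, 11.17 and 11.10 in the ob/ob arrays, against 7.50, 7.31 and 7.14 in the chow arrays (3.44 ± 0.31, adjusted p = 1.54e-09), and Lgmn, legumain, read 12.45, 12.78 and 12.80 in the ob/ob arrays, against 9.73, 9.84 and 9.79 in the chow arrays (2.89 ± 0.20, adjusted p = 1.49e-11). Tfec (1.52 ± 0.38) and Mitf (1.58 ± 0.23), transcription factors of lysosomal genes in macrophages, rose. A second probe set of Mitf gave 0.89. Gaa, the lysosomal glucosidase, was the single fall (-0.58 ± 0.12, adjusted p = 0.000304).

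Inflammatory cytokines and chemokines changed both ways, 18 of 40 rising and 6 falling, or 17 rising and 10 falling without ob/ob 01. Rises included Ccr2, the monocyte chemokine receptor, at 9.06, 8.39 and 8.39 in the ob/ob arrays, against 5.60, 5.56 and 5.14 in the chow arrays (3.18 ± 0.29, adjusted p = 1.5e-09), and Ccl8, a monocyte chemoattractant, at 7.84, 7.91 and 6.97 in the ob/ob arrays, against 4.68, 5.19 and 4.64 in the chow arrays (2.74 ± 0.22, adjusted p = 1.77e-10). Il1rn, the interleukin-1 receptor antagonist, rose (1.63 ± 0.22, adjusted p = 1.35e-06). The 6 that fell were Ccl4, Cxcl1, Cxcl2, Cxcl9, Cxcl10 and Il6, of which Ccl4 lost the call without ob/ob 02 (adjusted p = 0.0622), ob/ob 03 (0.128) or chow 02 (0.0779), and Cxcl9 without ob/ob 01 (0.0938), ob/ob 02 (0.0946), chow 02 (0.0609) or chow 03 (0.0598). Il6, interleukin-6, read 6.14, 4.62 and 4.34 in the ob/ob arrays, against 8.32, 8.28 and 8.17 in the chow arrays (-3.23 ± 0.36, adjusted p = 6.14e-08), and Cxcl1, a neutrophil chemokine, read 8.44, 7.15 and 6.86 in the ob/ob arrays, against 11.16, 11.48 and 11.30 in the chow arrays (-3.83 ± 0.25, adjusted p = 3.59e-12).

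Among cytokines often used as measures of adipose inflammation, Tnf and Ccl2 were not higher, and a rise of Il1b did not hold without ob/ob 01. Tnf, tumor necrosis factor, read 7.38, 7.23 and 7.25 in the ob/ob arrays, against 7.65, 7.63 and 7.18 in the chow arrays (adjusted p = 0.454), and Ccl2, monocyte chemoattractant protein 1, read 10.17, 9.40 and 8.66 in the ob/ob arrays, against 10.39, 10.26 and 10.15 in the chow arrays (-0.86 ± 0.36, adjusted p = 0.0721). Without ob/ob 01, the difference of Ccl2 was -1.24 at an adjusted p of 0.0126. Il1b read 8.79, 6.68 and 5.77 in the ob/ob arrays, against 6.35, 5.98 and 5.48 in the chow arrays, and its rise (1.14 ± 0.41, adjusted p = 0.0382) was that of ob/ob 01: without it the difference was 0.29 (adjusted p = 0.456). Cxcl2 fell with 9.80, 7.71 and 6.03 in the ob/ob arrays, against 10.69, 10.40 and 10.41 in the chow arrays (-2.65 ± 0.46, adjusted p = 5.86e-05, and -3.63 without ob/ob 01) and was also highest in ob/ob 01 among the ob/ob arrays.

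Of 19 complement genes 9 rose and 4 fell. C3ar1, the receptor for C3a, read 11.16, 11.90 and 12.02 in the ob/ob arrays, against 8.14, 8.01 and 8.33 in the chow arrays (3.53 ± 0.31, adjusted p = 1.08e-09), and the C1q chains rose with it, C1qb by 3.45 on the log2 scale. C7, a late component, rose (1.84 ± 0.17, adjusted p = 1.55e-09), while C6, its partner in the membrane attack complex, fell with 6.66, 6.83 and 6.92 in the ob/ob arrays, against 9.07, 9.25 and 9.04 in the chow arrays (-2.32 ± 0.18, adjusted p = 1.13e-10) and C2 fell with 7.33, 8.01 and 7.92 in the ob/ob arrays, against 9.69, 10.03 and 10.08 in the chow arrays (-2.18 ± 0.17, adjusted p = 8.51e-11).

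In the list of mast cell and eosinophil genes, 11 of 15 were higher and 0 lower (median 1.36). Fcer1a, the IgE-binding chain of the Fc receptor, read 5.98, 7.25 and 7.26 in the ob/ob arrays, against 4.34, 3.86 and 4.13 in the chow arrays (2.72 ± 0.25, adjusted p = 2.64e-09), Tpsb2, a tryptase, read 7.92, 9.32 and 9.71 in the ob/ob arrays, against 5.88, 6.10 and 6.02 in the chow arrays (2.98 ± 0.26, adjusted p = 6.01e-10), and Kit, the stem cell factor receptor, read 7.06, 7.82 and 8.50 in the ob/ob arrays, against 6.71, 6.43 and 6.08 in the chow arrays (1.38 ± 0.25, adjusted p = 8.23e-05). All 3 were lowest in ob/ob 01 among the ob/ob arrays. Epx, eosinophil peroxidase, did not pass, with 5.16, 4.83 and 3.90 in the ob/ob arrays, against 6.22, 4.19 and 4.60 in the chow arrays (-0.37 ± 0.36, adjusted p = 0.471). It was among the 4 genes of the list that did not pass. The list's other eosinophil genes, Prg2, Siglecf, Il5ra and Ccr3, therefore did not all fail the test. Ob/ob had the highest mean of the 6 epididymal groups for 11 of the 15 genes, against 2555 of all 19938 genes.

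T cell and NK cell genes rose in 12 of 22 cases and fell in 0 (median 0.54). Cd3g, a chain of the T cell receptor complex, read 7.12, 7.12 and 8.42 in the ob/ob arrays, against 4.86, 5.22 and 5.06 in the chow arrays (2.51 ± 0.32, adjusted p = 6.59e-07), Cd8a, the coreceptor of cytotoxic T cells, read 6.86, 6.70 and 7.48 in the ob/ob arrays, against 5.19, 6.04 and 5.16 in the chow arrays (1.55 ± 0.23, adjusted p = 6.7e-06), and Il7r, the interleukin-7 receptor, read 8.20, 9.82 and 10.40 in the ob/ob arrays, against 5.93, 6.41 and 5.96 in the chow arrays (3.38 ± 0.40, adjusted p = 1.71e-07, and 4.01 without ob/ob 01). Foxp3, the factor of regulatory T cells, read 5.72, 5.59 and 5.38 in the ob/ob arrays, against 5.54, 5.63 and 5.85 in the chow arrays (adjusted p = 0.663). B cell genes rose in 8 of 17 cases and fell in 0, led by Jchain, the joining chain of secreted IgM and IgA, with 7.68, 7.45 and 9.73 in the ob/ob arrays, against 5.93, 5.05 and 5.15 in the chow arrays (2.91 ± 0.43, adjusted p = 4.69e-06), and by Ms4a1, the CD20 antigen (1.95 ± 0.28, adjusted p = 3.46e-06).

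Neutrophil genes varied widely between arrays of one genotype. Of 17 measured, 2 rose and 1 fell, and the median was 0.05, against -0.61 without ob/ob 01. Without chow 01, 11 rose and 1 fell, with a median of 1.13. The list averaged 8.37, 6.75 and 6.02 in ob/ob, against 8.88, 5.73 and 5.65 in chow. Cxcr2 read 9.04, 6.38 and 4.51 in the ob/ob arrays, against 7.11, 4.72 and 4.11 in the chow arrays (1.33 ± 0.66, adjusted p = 0.133), with differences of 2.23 (adjusted p = 0.00905) without chow 01 and 2.40 (adjusted p = 0.0027) without ob/ob 03. S100a8 differed by 1.23 (adjusted p = 0.168), and by 2.68 (adjusted p = 5.34e-06) without chow 01. Csf3r, the receptor for granulocyte colony-stimulating factor, rose with 8.39, 6.99 and 6.69 in the ob/ob arrays, against 6.37, 5.54 and 5.31 in the chow arrays (1.62 ± 0.30, adjusted p = 0.000131). Lcn2, lipocalin-2, rose with 12.94, 11.91 and 11.10 in the ob/ob arrays, against 11.85, 8.51 and 8.31 in the chow arrays (2.43 ± 0.51, adjusted p = 0.000461), and its adjusted p was 0.0581 with only the compared arrays in the fit.

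Proliferation genes rose in 19 of 31 cases and fell in 0 (median 0.85), and in 24 cases with a median of 1.20 without ob/ob 01. Mki67, the Ki-67 antigen of dividing cells, read 7.74, 8.52 and 8.48 in the ob/ob arrays, against 7.88, 6.24 and 5.74 in the chow arrays (1.63 ± 0.34, adjusted p = 0.000492). Mcm6, of the replicative helicase, read 7.59, 8.60 and 8.36 in the ob/ob arrays, against 7.13, 6.07 and 6.21 in the chow arrays (1.72 ± 0.22, adjusted p = 5.56e-07). Their list mean was 6.07, 6.86 and 6.98 in ob/ob, against 6.26, 5.50 and 5.45 in chow, so array 01 of each group lay nearest to the other group, and chow 01 exceeded ob/ob 01. Without chow 01, 22 rose and 0 fell, with a median of 1.19.

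Fibroblast and preadipocyte genes rose in 13 of 23 cases and fell in 4 (median 1.03). Pdgfra, the receptor that marks adipocyte progenitors and fibroblasts, read 11.01, 10.59 and 10.03 in the ob/ob arrays, against 7.53, 7.65 and 7.42 in the chow arrays (3.01 ± 0.31, adjusted p = 1.43e-08), and Lum, the collagen-binding proteoglycan lumican, read 9.87, 11.09 and 10.91 in the ob/ob arrays, against 7.20, 6.69 and 6.62 in the chow arrays (3.79 ± 0.40, adjusted p = 2.53e-08). Mfap5, a microfibril protein, read 8.91, 9.79 and 10.00 in the ob/ob arrays, against 7.44, 6.96 and 7.40 in the chow arrays (2.31 ± 0.20, adjusted p = 7.65e-10). Falls in this list were led by F3, tissue factor (-1.44 ± 0.21, adjusted p = 3.37e-06).

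Matrix genes changed both ways, with 13 of 31 collagens and other matrix components higher and 6 lower. Those that rose included Col3a1, a fibrillar collagen, with 12.07, 12.02 and 11.98 in the ob/ob arrays, against 10.50, 10.45 and 10.33 in the chow arrays (1.60 ± 0.17, adjusted p = 1.61e-08), Col14a1, a fibril-associated collagen, with 8.26, 9.35 and 9.53 in the ob/ob arrays, against 6.90, 6.87 and 7.12 in the chow arrays (2.09 ± 0.21, adjusted p = 1.03e-08), the proteoglycan Bgn (2.16 ± 0.37) and fibronectin, Fn1 (2.10 ± 0.21). Col1a1 passed only narrowly (1.09 ± 0.39, adjusted p = 0.035), and it lost the call without any 1 of the 6 arrays except ob/ob 03, for example without ob/ob 01 (0.92, adjusted p = 0.114). Col15a1, of basement membranes, fell (-1.22 ± 0.21, adjusted p = 4.6e-05). The matricellular genes Thbs1, thrombospondin-1 (11.41, 10.69 and 10.42 in the ob/ob arrays, against 12.84, 13.18 and 13.18 in the chow arrays, -2.23 ± 0.24, adjusted p = 3.39e-08), and Tnc, tenascin-C (-1.77 ± 0.41, adjusted p = 0.00141), fell.

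Of 24 matrix proteases and inhibitors 10 rose and 4 fell. Timp1, an inhibitor of metalloproteinases, read 11.17, 9.90 and 8.54 in the ob/ob arrays, against 6.37, 6.3 and 6.49 in the chow arrays (3.49 ± 0.42, adjusted p = 2.58e-07, and 2.84 without ob/ob 01), while Timp4, the form of adipocytes and heart, read 7.76, 9.64 and 9.49 in the ob/ob arrays, against 11.74, 11.57 and 11.62 in the chow arrays (-2.68 ± 0.35, adjusted p = 6.84e-07, and -2.08 without ob/ob 01). Mmp3, stromelysin-1, read 8.83, 7.64 and 7.51 in the ob/ob arrays, against 4.59, 4.70 and 4.99 in the chow arrays (3.23 ± 0.27, adjusted p = 4.37e-10), Mmp2, gelatinase A, differed by 3.09 ± 0.29, and Adam8, a membrane protease of leukocytes, by 3.93 ± 0.28. The 3 members of the Adamts family that fell were Adamts1, Adamts4 and Adamts5, the last at an adjusted p of 0.0518 without ob/ob 01.

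Endothelial genes had no common direction, 6 of 20 rising and 2 falling around a median of -0.03. Vwf, von Willebrand factor, rose (1.28 ± 0.27, adjusted p = 0.000512), and Cldn5, the tight junction claudin of vessels, fell with 8.66, 8.35 and 8.39 in the ob/ob arrays, against 10.50, 10.68 and 10.65 in the chow arrays (-2.14 ± 0.20, adjusted p = 3.24e-09). Mesothelial genes rose in 3 of 18 cases and fell in 0 (median -0.08), smooth muscle genes rose in 2 of 16 and fell in 1, and skeletal muscle and nerve genes rose in 1 and fell in 1 each, of 16 and 13. Of 18 epithelial genes of the male tract and 13 of pancreas, 2 each fell and 0 rose. Without ob/ob 01, 1 mesothelial and 1 smooth muscle gene rose, and 4 genes each of the male tract and of pancreas fell.

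Immediate early genes, which are transcribed within minutes of a stimulus without new protein synthesis, had the largest share of falls among the 55 gene lists. Of 27 measured, 25 fell and 0 rose (median -1.71, and -1.74 with 23 falling without ob/ob 01). Fos, the first partner of Jun in AP-1, read 7.19, 7.67 and 8.07 in the ob/ob arrays, against 10.86, 10.79 and 10.67 in the chow arrays (-3.13 ± 0.32, adjusted p = 1.35e-08), and Jun read 9.02, 8.78 and 8.97 in the ob/ob arrays, against 11.46, 11.50 and 11.45 in the chow arrays (-2.55 ± 0.17, adjusted p = 3.59e-12). Ier2, an early response nuclear protein, read 6.82, 7.04 and 6.89 in the ob/ob arrays, against 10.63, 10.44 and 10.46 in the chow arrays (-3.60 ± 0.37, adjusted p = 1.64e-08), and Btg2, an antiproliferative factor, read 8.39, 8.02 and 8.26 in the ob/ob arrays, against 11.73, 11.83 and 11.81 in the chow arrays (-3.57 ± 0.17, adjusted p = 3.22e-14). Myc (-2.65 ± 0.13), Zfp36, the tristetraprolin gene whose product destabilizes cytokine mRNA (-2.81 ± 0.19), and Egr2 (-2.27 ± 0.24) fell as well. The list averaged 7.94, 7.83 and 7.87 in ob/ob, against 10.01, 9.99 and 9.96 in chow. Dusp2, a phosphatase of MAP kinases (-0.10), and Klf2, an endothelial zinc finger factor (-0.03), did not pass the test.

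Several immediate early promoters carry the motif TGACG, part of the cyclic AMP response element, and the 250 bases before the start of 4 genes with large falls are shown to place it. The sequences are those of RefSeq (GRCm38.p6), written 5′ to 3′ on the gene's strand, and capitals mark TGACG or its reverse complement CGTCA.
Fosb (chr7:19310046-19310295, minus strand): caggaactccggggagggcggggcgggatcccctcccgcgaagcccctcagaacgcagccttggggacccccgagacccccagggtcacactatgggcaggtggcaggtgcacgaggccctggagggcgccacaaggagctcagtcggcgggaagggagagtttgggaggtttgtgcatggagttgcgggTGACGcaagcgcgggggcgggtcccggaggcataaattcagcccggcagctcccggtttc
Fos (chr12:85473640-85473889, plus strand): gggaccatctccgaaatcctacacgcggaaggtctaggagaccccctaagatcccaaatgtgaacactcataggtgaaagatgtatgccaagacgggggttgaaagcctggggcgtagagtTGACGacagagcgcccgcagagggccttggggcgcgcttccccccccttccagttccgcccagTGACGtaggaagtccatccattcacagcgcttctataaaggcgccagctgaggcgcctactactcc
Nr4a1 (chr15:101266596-101266845, plus strand): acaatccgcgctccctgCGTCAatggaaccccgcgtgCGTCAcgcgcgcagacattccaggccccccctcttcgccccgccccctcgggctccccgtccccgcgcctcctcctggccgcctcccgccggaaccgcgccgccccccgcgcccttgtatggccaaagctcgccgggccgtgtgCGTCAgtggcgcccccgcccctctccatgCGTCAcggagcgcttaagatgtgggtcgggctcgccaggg
Btg2 (chr1:134079156-134079405, minus strand): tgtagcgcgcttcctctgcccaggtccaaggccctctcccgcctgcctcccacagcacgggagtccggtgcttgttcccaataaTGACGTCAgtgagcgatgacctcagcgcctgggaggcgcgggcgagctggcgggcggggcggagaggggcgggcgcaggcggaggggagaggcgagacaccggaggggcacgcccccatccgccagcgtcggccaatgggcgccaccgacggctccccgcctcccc
Fosb held 1 match, Fos 2, Nr4a1 4 and Btg2 2, the pair of Btg2 being overlapping matches on both strands within a full TGACGTCA. Searched on both strands, TGACG was present in 14 of 26 promoters (53.8%) of the 22 immediate early genes in the RefSeq table, against 17.8% of all 32851 promoters. The full element TGACGTCA, which contains TGACG, was in 2 of 26 (7.69%, against 1.55%), and the CArG box, the site of serum response factor, in 5 of 26 (19.2%, against 1.47%). In pan-macrophage promoters the PU.1 box GAGGAAGT was in 1 of 17 (5.88%, against 2.44%). These matches describe the sequences and carry no information on binding in these cells.

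For Fosb the means of the other 4 epididymal groups lay between those of ob/ob and of chow at 6 months. It stood at 11.86, 12.01 and 11.75 in epididymal adipocytes of HFD mice at 6 months, 9.37 to 9.58 on HFD at 14 months, 6.89, 8.88 and 9.29 on chow at 14 months and 9.32 to 9.55 on chow at 18 months. Il6 was 9.15 to 10.12 on HFD at 6 months and 3.78 to 4.15 on chow at 14 months, and Cxcl1 was 10.54 to 10.99 on HFD at 6 months and 6.55 to 6.93 on chow at 14 months. Of the 27 immediate early genes, ob/ob had the lowest mean of the 6 epididymal groups for 12, and chow at 6 months had the highest for 15, against 4758 and 4844 of all 19938 genes. Heat shock chaperones, another inducible group, fell in 9 of 17 cases and rose in 0 (median -0.54), led by Dnajb1, an Hsp40 cochaperone, with 7.94, 7.90 and 7.84 in the ob/ob arrays, against 10.60, 10.63 and 10.55 in the chow arrays (-2.70 ± 0.13, adjusted p = 2.46e-14). The times from death to digestion and digestion to lysis are not given in the sources used here, and their part in these levels was not tested.

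**Figure D4:**
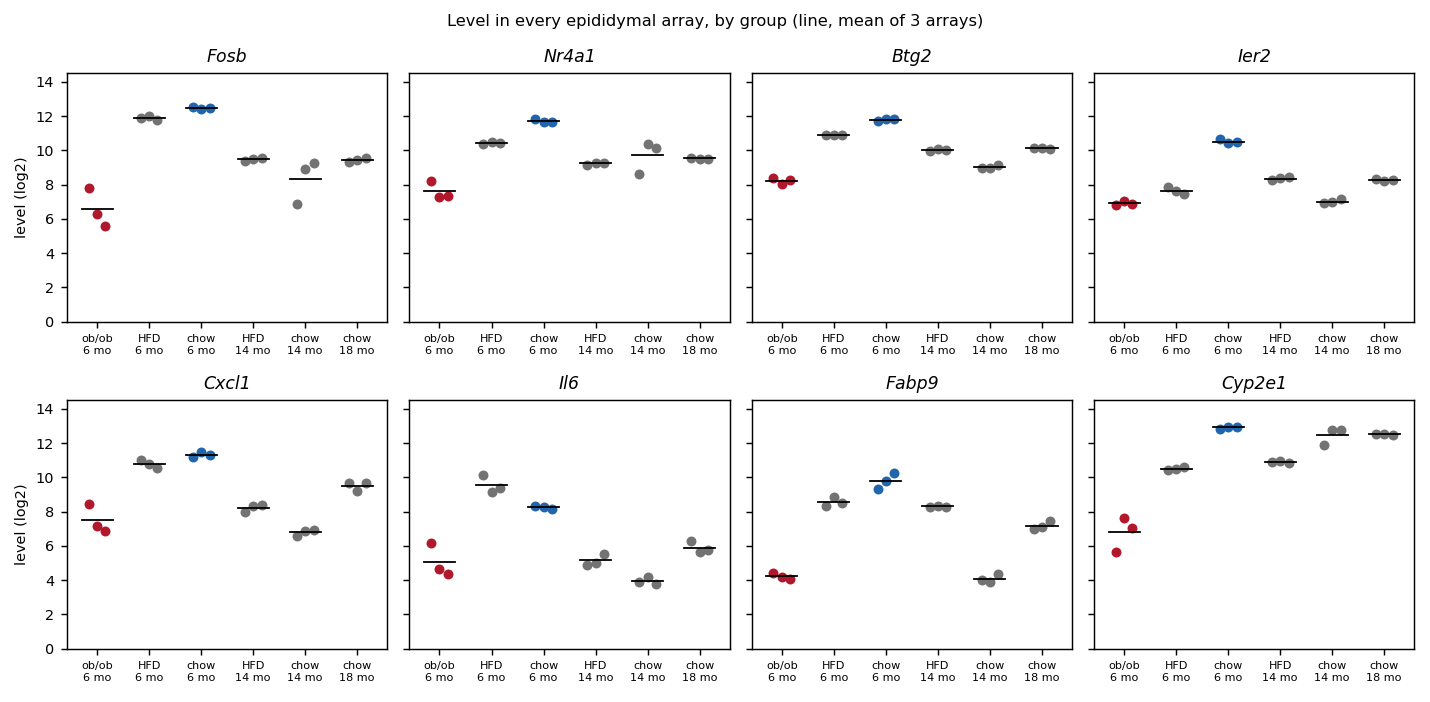
Log2 level of Fosb, Nr4a1, Btg2, Ier2, Cxcl1, Il6, Fabp9 and Cyp2e1 in every epididymal array, by group, with ob/ob in red, chow at 6 months in blue, the other groups in grey and a line at each mean of 3 arrays. Chow at 6 months has the highest mean in each panel except that of Il6, where HFD at 6 months is higher, and for Fabp9 the chow groups range from 3.89 at 14 months to 10.26 at 6 months.

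The array also carries probe sets for precursors of microRNAs, short RNAs that repress mRNAs by pairing with bases 2 to 8 (the seed). Of 305 probe sets with a single microRNA gene name, 23 rose and 13 fell, lower shares than the 13.9% and 16.0% of all genes. Of the 305, 8 were called higher and 1 lower, again lower shares than the 5.62% and 4.14% of all probe sets. The probe sets read RNA of the locus or the precursor, not the mature microRNA. A mature arm of each of the 9 called genes is shown from RefSeq (GRCm38.p6) with the seed in capitals, so that the seeds can be compared.
mmu-miR-103-3p (Mir103-2, chr2:131288103-131288125): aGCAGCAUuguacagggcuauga
mmu-miR-142a-3p (Mir142, chr11:87756903-87756925): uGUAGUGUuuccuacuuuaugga
mmu-miR-15a-5p (Mir15a, chr14:61632075-61632096, minus strand): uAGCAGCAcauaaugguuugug
mmu-miR-340-5p (Mir340, chr11:50069720-50069741): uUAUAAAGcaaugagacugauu
mmu-miR-99a-5p (Mir99a, chr16:77598940-77598961): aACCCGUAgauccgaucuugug
mmu-miR-342-3p (Mir342, chr12:108658680-108658702): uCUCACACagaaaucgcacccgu
mmu-miR-181b-5p (Mir181b-1, chr1:137966650-137966673): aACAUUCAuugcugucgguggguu
mmu-let-7c-5p (Mirlet7c-1, chr16:77599672-77599693): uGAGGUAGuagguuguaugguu
mmu-miR-568 (Mir568, chr16:43640665-43640684): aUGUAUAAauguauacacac
The 17 mature forms of these 9 genes have 17 distinct seeds, of which those of miR-103-3p and miR-15a-5p both hold GCAGCA.

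Mir103-2 read 6.16, 5.57 and 6.38 in the ob/ob arrays, against 3.36, 3.69 and 4.06 in the chow arrays (2.34 ± 0.23, adjusted p = 7.63e-09), the largest rise among microRNA genes. It lies within Pank2, a pantothenate kinase gene whose mRNA differed by -0.18 (adjusted p = 0.338). Mir142, a microRNA gene of hematopoietic cells, read 7.03, 6.44 and 6.47 in the ob/ob arrays, against 4.86, 4.79 and 4.91 in the chow arrays (1.80 ± 0.22, adjusted p = 3.71e-07). Mir342 rose (1.29 ± 0.20, adjusted p = 1.37e-05) together with its host Evl, an actin regulator of leukocytes and endothelium, which averaged 9.67 in ob/ob and 7.57 in chow (2.10, adjusted p = 2.21e-08). Mir15a rose by 1.51 on the log2 scale while its host Dleu2 differed by 0.11 (adjusted p = 0.647). Dleu2 averaged 3.14 in ob/ob and 3.03 in chow, near the bottom of the scale, so its values cannot show whether the host changed with Mir15a. Mir340 rose by 1.36, Mir99a by 1.30, Mir181b-1 by 1.07 and Mirlet7c-1 by 1.04. The chow means of Mir103-2 (3.70), Mir340 (3.24) and Mir181b-1 (3.80) were near the bottom of the scale, so the sizes and ranks of their rises are uncertain. Mir568 was the one that fell, with 5.89, 6.22 and 5.77 in the ob/ob arrays, against 6.99, 7.31 and 7.50 in the chow arrays (-1.30 ± 0.18, adjusted p = 2.49e-06).

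In bone marrow adipocytes of the same genotypes, measured on 6 other arrays, 35 probe sets (0.150%) were called, with 2039 at an unadjusted p under 0.05 by limma. Of these 35, 16 were also called in epididymal adipocytes, and 7 of those in the same direction. The difference between the depots in the ob/ob effect was tested directly, and 2520 probe sets (10.8%) differed at least 2-fold at an adjusted p under 0.05. Bone marrow chow 01 and bone marrow ob/ob 03 belong to a set of 8 arrays that stands apart in the series, and with a term for that set 2608 probe sets differed. The study describes both depots of the wild type mice as taken from the same animals, which the fit treats as independent. With same-numbered arrays of the depots paired in a block, a fit chosen after seeing the data, 2526 probe sets differed. Deviations of same-numbered arrays of the depots from their group means correlated at -0.14 to 0.18, so the numbers alone do not show which pools share animals.

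Adipocyte markers moved apart by depot: their median was 0.49 in bone marrow, with 4 rising and 0 falling at an adjusted p under 0.05 with no fold minimum (15 of all 19938 genes, 0.0752%, rose there). By the same rule the depot difference passed for 18 of the 22, against 20.3% of all genes. For pan-macrophage markers the bone marrow median was -0.10, and the difference passed for 20 of 21. Cyp2e1 had the largest negative difference, epididymal minus bone marrow: its ob/ob effect was -6.13 in epididymal and 1.43 in bone marrow adipocytes (-7.57). Fosb came next (-5.89 in epididymal, 1.58 in bone marrow), and 21 of 27 immediate early genes had a negative depot difference that passed, against 9.85% of all genes. On the positive side stood Atp6v0d2 (5.04 in epididymal, -0.82 in bone marrow) and Gpnmb (4.47 in epididymal, -0.70 in bone marrow). The macrophage and adipocyte gene levels of the bone marrow preparations differ from those of fat in both genotypes, and the part of this in the depot difference was not tested.

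The ob/ob effect was next set beside that of HFD against chow in epididymal adipocytes at 14 months, a diet-induced obesity that shares no arrays with it. There 835 probe sets (3.57%) were called. Both comparisons called 374 probe sets, which are 16.4% of the ob/ob calls and 44.8% of the HFD calls. Of these, 108 changed in the same direction (76 higher and 32 lower in both) and 266 in opposite directions, 210 of them higher in ob/ob and lower on HFD. Ages differ between the comparisons, so genotype, diet and age cannot be told apart in them.

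Gene groups were then read on the direct test of the difference between the effects, which called 1954 probe sets (8.35%) as higher in the ob/ob effect than in the HFD effect and 1563 (6.68%) as lower. With no fold minimum, 27.8% of all genes differed between the effects, and in the HFD comparison itself 6.10% rose and 6.99% fell. Pan-macrophage markers had a median of 3.09 in ob/ob and 0.26 on HFD, and 18 of 21 differed. Resident macrophage genes had medians of 0.24 in ob/ob and -2.19 on HFD, where 19 of 22 fell. MHC class II genes had medians of 1.29 in ob/ob and -1.05 on HFD, and 12 of 12 differed. Lipid-associated macrophage genes rose in 14 of 20 cases in ob/ob and in 11 on HFD, with medians of 1.39 in ob/ob and 0.96 on HFD, and 7 of 20 differed between the effects, a share close to that of all genes. Gpnmb stood at 4.47 in ob/ob and 2.11 on HFD.

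Of 22 adipocyte markers 14 differed between the effects, with medians of -1.14 in ob/ob and 0.18 on HFD, where 1 rose and 0 fell. Of 28 fatty acid and triglyceride synthesis genes 23 differed, with medians of -1.22 in ob/ob and -0.03 on HFD, where 1 rose and 2 fell. Branched-chain amino acid enzymes differed in 20 of 22 cases, with medians of -1.32 in ob/ob and 0.30 on HFD, where 7 rose and 0 fell. Fatty acid oxidation genes differed in 22 of 27 cases, with medians of -0.78 in ob/ob and 0.58 on HFD, where 13 rose and 0 fell. Immediate early genes fell in ob/ob in 25 of 27 cases and rose on HFD in 12, and 23 differed between the comparisons. The largest single differences were Fabp9, at -5.57 in ob/ob and 4.22 on HFD, and Lsmem1, at -5.07 in ob/ob and 2.59 on HFD. Fabp9 read 8.27 to 8.34 on HFD and 3.89 to 4.33 on chow at 14 months, where 13.8% of tested probe sets were lower, so both of its differences are set against levels near the bottom of the scale. On the other side, Cxcl13 was 4.0 in ob/ob and -2.64 on HFD, and Ccr2 3.18 in ob/ob and -2.82 on HFD. The chow levels of these genes differed with age: 14 minus 6 months gave 3.53 for Cxcl13, 2.45 for Ccr2, -4.79 for Lsmem1 and -5.71 for Fabp9. HFD minus chow at 6 months gave -2.24 for Lsmem1, and 0.92 for Cxcl13 (limma, adjusted p = 0.17) and 0.27 for Ccr2 (adjusted p = 0.476), which did not pass.

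**Figure D5:**
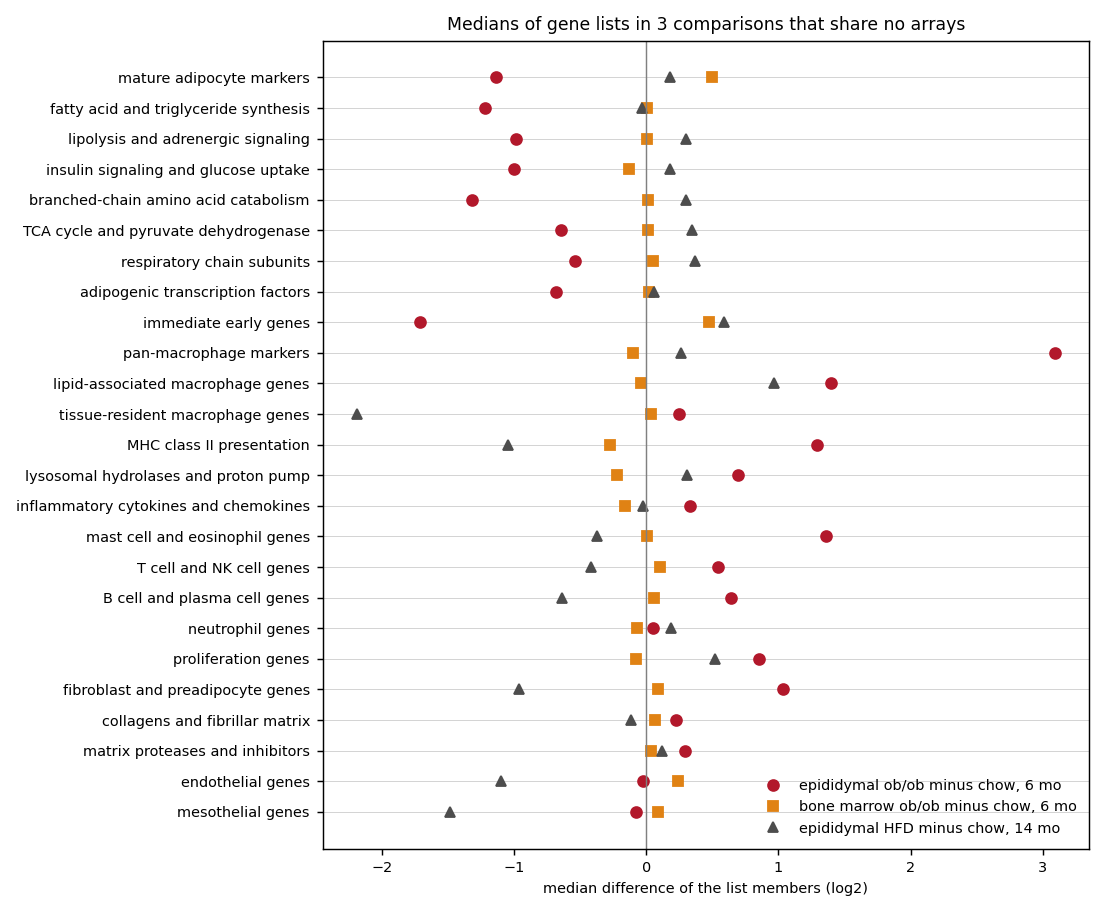
Median log2 difference of the members of 25 gene lists in epididymal ob/ob minus chow at 6 months (red circles), bone marrow ob/ob minus chow at 6 months (orange squares) and epididymal HFD minus chow at 14 months (grey triangles). For pan-macrophage markers the medians are 3.09, -0.10 and 0.26, and for resident macrophage genes they are 0.24 in epididymal ob/ob and -2.19 on HFD at 14 months.

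HFD against chow at 6 months uses the same chow arrays as ob/ob against chow, and its HFD arrays belong to the set of 8 that stands apart, so the values are only placed side by side. Pan-macrophage markers had a median of 3.09 in ob/ob and 3.64 on HFD, and adipocyte markers -1.14 in ob/ob and -0.39 on HFD. Gpnmb differed from chow by 4.47 in ob/ob and by 5.12 on HFD, Cpa3 by 4.39 in ob/ob and 4.02 on HFD, and Slc2a4 by -3.02 in ob/ob and -1.88 on HFD. Fosb differed by -5.89 in ob/ob and -0.59 on HFD, and Fabp9 by -5.57 in ob/ob and -1.24 on HFD.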

How the data were processed

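RNA pools of epididymal adipocytes were hybridized to Affymetrix Mouse Gene 1.0 ST arrays, 3 per group. The deposited table holds log2 values that the authors made with Partek software, by RMA or GCRMA and quantile normalization according to the labels and methods. Which of these made the values, and which arrays were normalized together, is not given in the sources used here. No scaling was added to the deposited log2 values.

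Probe sets were named through the platform annotation, 21789 carrying a single gene symbol and 1621 several, which were tested and not named. A linear model of group means (limma 3.58.1 under R 4.3.3, with empirical Bayes moderation) took the 30 arrays of the 10 groups at 6 and 14 months, with 20 residual and 6.36 prior degrees of freedom, and p-values were adjusted by Benjamini-Hochberg over 23410 probe sets. Calls required an adjusted p under 0.05 and a 2-fold change. The number of arrays limits the precision. Gene lists, 55 in all, were read on 1 probe set per gene, the one with the highest mean. The members and lists were chosen with earlier results of these data known.

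Named genes were the 10 largest rises and falls among called probe sets with 1 symbol and no overlap between groups, leaving out predicted, clone, olfactory, vomeronasal and immunoglobulin segment genes, Lep and Lepr, list members with the largest changes or a defined role, and the 5 largest each way in the tests of a difference between effects. A few genes outside this rule, such as the arrays' most uneven transcripts, microRNA hosts and Pmp2 as a neighbour of Fabp9, were chosen after their values were seen. The fit was tested on simulated data. Alternatives were other fits, scalings and filters, array weights, the replicate number as a block, and the omission of single arrays. Metabolic and histological measurements were not analysed here.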

Additional observations from a re-analysis of the deposited data

Results flagged for a closer look

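The ob/ob effect differed between depots, by the limma test of the difference itself, at 2520 probe sets. The named genes with the largest positive differences, epididymal minus bone marrow, were Atp6v0d2 (5.87), Gpnmb (5.17), Cpa3 (4.56), Hpgds (4.49) and Tm4sf19, a tetraspanin-like protein of macrophages and osteoclasts (4.43). The largest negative ones were Cyp2e1 (-7.57), Fosb (-7.47), Fabp9 (-5.64), Lsmem1 (-4.99) and Ccn1, a matricellular protein induced by growth factors (-4.88). Atp6v0d2 differed by 5.04 between ob/ob and chow in epididymal and -0.82 in bone marrow adipocytes, Tm4sf19 by 3.70 in epididymal and -0.74 in bone marrow, Fosb by -5.89 in epididymal and 1.58 in bone marrow, and Ccn1 by -3.78 in epididymal and 1.09 in bone marrow.

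The ob/ob effect at 6 months differed from the HFD effect at 14 months in epididymal adipocytes, by the same kind of test, at 3517 probe sets. Largest on the positive side, ob/ob minus HFD, were Cxcl13 (6.64), the probe set listed under Kcnma1 (6.03), Ccr2 (6.00), Wfdc17, a secreted whey acidic protein of macrophages (5.89), and Ms4a6b (5.60). Largest on the negative side were Fabp9 (-9.79), Lsmem1 (-7.66), Fosb (-7.02), Pmp2 (-6.65) and Cenpu, a centromere protein (-6.09). Of these, Wfdc17 was 3.76 in ob/ob and -2.13 on HFD, Pmp2 -3.39 in ob/ob and 3.26 on HFD, and Cenpu -2.81 in ob/ob and 3.28 on HFD. Their chow levels differed with age, 14 minus 6 months giving 2.86 for Wfdc17, -3.40 for Pmp2 and -3.52 for Cenpu. HFD minus chow at 6 months, which shares its chow arrays with the ob/ob effect, gave 4.23, -1.18 and -1.69, the direction of ob/ob. Genotype, diet and age cannot be told apart in the difference between the effects. The levels of Fabp9 in ob/ob and in chow at 14 months lie near the bottom of the scale, as does that of Pmp2 in ob/ob (mean 4.10). The sizes of the differences of Fabp9 and Pmp2 are therefore uncertain.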

How the results depend on the processing

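With no fold minimum 6964 probe sets were called, 3459 higher and 3505 lower, and 4633 and 6404 differed between depots and from HFD at 14 months. Over all probe sets of the table, unnamed ones included, 2133 were higher. The other alternatives kept each count within 1.5 times. Leaving out 1 array gave 2226 to 2429 calls, 1209 to 1489 higher and 933 to 1054 lower, with 2397 to 2928 depot differences and 3268 to 3722 differences from HFD. With the replicate number as a block 2284 were called, 1315 higher and 969 lower, with 2525 and 3518 differences. Deviations of same-numbered ob/ob and chow arrays correlated at -0.14, -0.01 and -0.16, so the numbers do not pair samples, and Scd1 was the 1 named gene that lost its call under the block (adjusted p = 0.0527).

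Single genes were judged by direction and an adjusted p under 0.05, with no fold minimum. Of 3330 values of the 222 named genes under these alternatives, 3258 kept their direction and side of that threshold, 40 no longer passed, 22 newly passed and 10 changed sign. Crossings of the 2-fold minimum were not counted. Mirlet7c-1, for example, was called higher and passed in every alternative, but its difference went down to 0.868. For genes uneven within ob/ob, the highest adjusted p (limma) among the alternatives was 0.000678 for the probe set listed under Kcnma1, 0.00287 for Mcpt4 and 0.00113 for Thrsp. The sign changes were of Dleu2 (-0.0023 with each array centred), Cd36 (0.0496 with array weights and -0.101 to 0.0671 without single arrays), and, without single arrays, Dusp2 (-0.318 to 0.0352), Klf2 (-0.236 to 0.106) and Epx (-0.781 to 0.234). Calls were lost somewhere by Scd1, Il1b, Col1a1, Pparg, Metrnl, Lcn2, Cd209b, Ccl4, Cxcl9, Adamts5 and Dcstamp, the last with only the compared arrays (adjusted p = 0.0796), and gained by Ccl2, Cxcr2, Fabp4, Gpd1, Lpl, Lep, Lepr, Lyve1 and S100a8, for example Fabp4 with only epididymal arrays (adjusted p = 0.00246). Of 715 list medians 638 moved by less than the spread between replicates. All 490 values of the genes named for a difference between effects, a set of alternatives chosen after seeing the data, kept direction and call. Values near the bottom of the scale, such as Lepr and the eosinophil genes, lie where arrays measure differences least well.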

Other observations

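Several gene groups outside the main account changed in both directions. Of 20 cholesterol synthesis and uptake genes 7 fell and 1 rose, or 6 and 4 without ob/ob 01, with Fdft1, squalene synthase, at 7.65, 8.01 and 8.40 in the ob/ob arrays, against 9.71, 9.52 and 9.53 in the chow arrays (-1.56 ± 0.24, adjusted p = 8.06e-06) and Insig1, a sterol sensor, at -1.13. Of 16 efflux and LXR target genes 4 rose and 4 fell (median -0.09), the rises being led by Nceh1, the cholesteryl ester hydrolase of macrophages, with 8.77, 9.96 and 10.11 in the ob/ob arrays, against 5.78, 5.91 and 5.74 in the chow arrays (3.80 ± 0.34, adjusted p = 9.68e-10), and by Pltp, the phospholipid transfer protein (1.76 ± 0.25, adjusted p = 3.71e-06). The median of the synthesis genes was -0.30, and -0.09 without ob/ob 01. Of 32 glutathione and antioxidant genes 15 fell and 7 rose: Gsta4, a glutathione transferase for lipid aldehydes, read 6.72, 7.27 and 6.91 in the ob/ob arrays, against 9.77, 9.91 and 9.75 in the chow arrays (-2.84 ± 0.19, adjusted p = 9.48e-12), and Akr1b8, an aldose reductase, read 8.88, 10.32 and 10.66 in the ob/ob arrays, against 7.0, 7.25 and 6.95 in the chow arrays (2.89 ± 0.31, adjusted p = 3.16e-08). Iron handling genes rose in 5 of 17 cases and fell in 4, with Slc40a1, the iron exporter ferroportin, at 9.25, 10.04 and 10.07 in the ob/ob arrays, against 7.64, 6.99 and 6.96 in the chow arrays (2.59 ± 0.28, adjusted p = 3.85e-08).

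Among circadian clock genes 9 of 17 fell and 1 rose. Nfil3, a repressor of D-box genes, read 7.39, 6.68 and 6.50 in the ob/ob arrays, against 9.70, 9.71 and 9.74 in the chow arrays (-2.86 ± 0.21, adjusted p = 2.63e-11), and Nr1d1, the nuclear receptor REV-ERB alpha, read 9.50, 10.03 and 9.70 in the ob/ob arrays, against 11.68, 11.78 and 11.70 in the chow arrays (-1.98 ± 0.23, adjusted p = 1.12e-07). The hours at which mice were killed are not given in the sources used here, and their part in these levels was not tested. The list of endoplasmic reticulum and integrated stress genes went both ways (9 of 30 higher and 8 lower, or 5 and 11 without ob/ob 01), and its falls included Phgdh of serine synthesis with 7.64, 8.83 and 8.86 in the ob/ob arrays, against 10.92, 10.90 and 10.72 in the chow arrays (-2.40 ± 0.23, adjusted p = 3.22e-09) and Asns of asparagine synthesis with -1.55. Retinoid genes rose in 5 of 19 cases and fell in 4, Dhrs9, a retinol dehydrogenase, with 8.04, 8.63 and 8.98 in the ob/ob arrays, against 5.82, 5.16 and 5.13 in the chow arrays (3.18 ± 0.28, adjusted p = 8.66e-10) and Aldh1a2, a retinaldehyde dehydrogenase, with 2.40 (1.67 without ob/ob 01). In the renin-angiotensin list 4 of 11 rose and 4 fell, and Anpep, aminopeptidase N, read 9.65, 10.50 and 10.94 in the ob/ob arrays, against 6.91, 6.92 and 6.56 in the chow arrays (3.57 ± 0.28, adjusted p = 1.2e-10) while Agt fell by 3.49 on the log2 scale.

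Cytosolic ribosomal protein genes rose in 15 of 28 cases and fell in 0 (median 0.49). Ob/ob had the highest mean of the 6 epididymal groups for 14 of the 28, against 2555 of all 19938 genes. Small nucleolar RNA probe sets, 56 in all, rose in 7 cases and fell in 1, with a median of 0.43. Hypoxia genes rose in 3 of 22 cases and fell in 8, Adm, adrenomedullin, by 2.15 on the log2 scale. Interferon-stimulated genes rose in 5 of 25 and fell in 5, and Irf1, which interferon gamma induces, differed by -2.45 ± 0.14. The p53 and senescence list fell in 6 of 16 cases and rose in 0. Acute phase genes rose in 2 of 17 and fell in 5, with Saa3, serum amyloid A3, at 2.78 ± 0.43 (2.05 without ob/ob 01), and Ptx3, pentraxin 3, at -2.85 ± 0.53 (-3.91 without ob/ob 01). Glucocorticoid response genes fell in 10 of 19 cases and rose in 2, glycolysis genes in 4 and 3 of 17, and brown and beige genes in 5 and 1 of 18. The 12 erythroid and platelet genes rose in 2 cases and fell in 0.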
